A study of Mus musculus with 10 samples.

Results

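Wild-type NIH3T3 cells, a mouse embryonic fibroblast line, were compared at 6 and 9 h after a move from 33 to 38 °C with cells at 0 h of the same move. The late samples were the 6 h and the 9 h sample of this warming course, and the 0 h sample of the course was their baseline, so 3 of the 10 samples of the series carry the comparison. Cells in all groups had been seeded at 37 °C for 4 h. The late warming samples had then spent 16 h at 33 °C followed by 6 or 9 h at 38 °C, and the 0 h sample had spent only the 16 h at 33 °C. The cooling course, used below as a contrast, ran the other way, with 6 h and 9 h samples taken at 33 °C after 16 h at 38 °C and a 0 h sample at 38 °C. No transgene, knockout or drug is named in the labels, and all samples come from 1 established line. Ribosome-depleted total RNA was read in strand-specific paired-end libraries, and the deposited tables give reads in exons and reads in introns for each gene. Each sample has 2 columns of each kind, numbered series 2 and 13 in warming and series 5 and 11 in cooling. The comparison therefore rests on 4 late columns and 2 columns at 0 h.

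Mammalian cells react to a rise in temperature through heat shock factors, which bind heat shock elements near genes for cytosolic chaperones. Misfolded proteins in the endoplasmic reticulum act through a separate pathway, the unfolded protein response. A drop in temperature raises Cirbp and Rbm3, RNA-binding proteins known as cold-inducible, and Cirbp is the gene that the series title names, with its splicing as the subject. Reads in exons stand mainly for mature RNA, and reads in introns for RNA that is not yet spliced.

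Exon totals of the 6 columns ran between 28593421 and 48004854 reads and intron totals between 16040605 and 25233405. The 10 fibroblast markers checked, collagens and platelet-derived growth factor receptors among them, were all found, and their summed level was 21700 to 36600 exon CPM (the reads of a column scaled to a common total) in the late columns and 27500 to 37000 CPM at 0 h. Summed epithelial markers reached 29.6 to 76.3 CPM in the late columns and 24.1 to 80.9 CPM at 0 h, with Cldn4, Epcam and Krt18 at 0. Nearly all of this sum was Krt14, at 28.9 to 73.1 CPM late and 23.7 and 77.0 CPM at 0 h, higher in series 13. Endothelial markers summed to 1.86 to 6.34 CPM late and 3.31 to 7.93 CPM at 0 h, and leukocyte, muscle and neural markers to at most 2.60 CPM in any of the 6 columns, with Cd3e, Myod1, Myog, Ckm, Snap25, Sox10 and Olig2 at 0. The columns of a sample are treated as runs of 1 sample and added, because the labels name 1 sample per time and do not say whether the columns are separate cultures. Adding them weights each series by its reads, so the series richer in a gene sets more of its summed difference. Differences between the series held across times, with a correlation across genes of 0.819 between 6 and 0 h and 0.933 between 9 and 6 h. P-values come from edgeR's quasi-likelihood test with Benjamini-Hochberg adjustment. They rest on the spread between 6 h and 9 h samples and do not measure that between the series. The spread between 6 h and 9 h was pooled over both courses and drawn toward a spread shared across genes. The shared spread weighed a median of 6.19 degrees of freedom for exon reads, 10.3 for intron reads and 171 for the exon to intron ratio. The gene itself gave 2. The single 0 h sample is assumed to vary like the late samples, and 6 to 9 h of further time in culture cannot be told apart from warmth within this course. In bulk RNA, fewer cells of a kind and less RNA per cell cannot be told apart either. Values in pairs below are always series 2 and then series 13, each as CPM of its own column.

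Exon reads of a large share of genes differed between the late warming samples and 0 h, in both directions. Of 10174 genes tested, 1522 (15.0%) were higher and 1623 (16.0%) lower at 6 and 9 h than at 0 h at an adjusted p below 0.05, together 30.9%. Differences of 2-fold or more were fewer, 119 higher and 143 lower. With the 9 h sample alone as the late group 2068 genes were called, and with the 6 h sample alone 1805. With the columns as libraries and the series number as a block 2774 genes were called, and of the genes whose late exon difference is given below Ctgf, Sema7a, Canx, Slc7a11, Ddit4, Mcm6, Gtse1, Eda2r, Col1a1, Myc, Klf10, Cry2, Per1, Hmox1, Ifit3, P4ha1, Pfkl, Pdk1 and Srrm2 lost their call there (adjusted p between 0.0508 for Ifit3 and 0.426 for Per1).

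Regulators of transcription and chromatin stood among the 10 largest rises. Nfil3, a leucine zipper repressor of transcription that is also a clock output gene (chr13:52967209-52981073, minus strand), had 10.6 and 13.5 CPM at 6 h and 13.5 and 19.9 CPM at 9 h, against 2.46 and 3.76 CPM at 0 h. Each late column exceeded both 0 h columns, and the fitted log2 difference was 2.19 ± 0.31 (± SE, adjusted p = 0.00427). Bcl6, a zinc finger repressor (chr16:23965052-23988852, minus strand), had 8.60 and 30.7 CPM at 6 h and 9.2 and 29.6 CPM at 9 h, against 2.71 and 9.76 CPM at 0 h. The late and 0 h columns overlap across series, because series 13 held more Bcl6 throughout, and within each series both late values were above the 0 h value, with a difference of 1.66 ± 0.14 (adjusted p = 0.000643). L3mbtl3, a reader of methylated lysines (chr10:26274468-26375971, minus strand), had 25.6 and 30.0 CPM at 6 h and 25.6 and 28.6 CPM at 9 h, against 8.19 and 8.59 CPM at 0 h, without overlap and with a difference of 1.72 ± 0.14 (adjusted p = 0.000563). L3mbtl3 overlaps Gm23757 and Gm27754. Cenpa, the histone H3 variant of centromeres (chr5:30666777-30674830, plus strand), had 169 and 80.2 CPM at 6 h and 187 and 104 CPM at 9 h, against 22.2 and 55.9 CPM at 0 h. Its series differed most at 0 h, and all late columns were above both 0 h columns, with a difference of 1.69 ± 0.21 (adjusted p = 0.00395).

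The other large rises were of mixed kinds. Lman2l, a lectin of the early secretory pathway that overlaps Fer1l5, had 23.4 and 26.1 CPM at 6 h and 22.3 and 27.4 CPM at 9 h, against 6.27 and 7.50 CPM at 0 h, a clear separation of late from 0 h columns (1.84 ± 0.31, adjusted p = 0.0114). Prl2c3, a proliferin of the prolactin family, was measured mostly in series 2, at 89.9 and 2.14 CPM at 6 h and 104 and 2.98 CPM at 9 h, against 26.7 and 2.12 CPM at 0 h. It was called in the sum (1.78 ± 0.12, adjusted p = 0.000325) and not in series 13 with 11 alone (0.27, adjusted p = 0.531), and close relatives of this gene family can share reads. The protein-coding 9030617O03Rik, which overlaps 3 other genes, stood at 1.64 (adjusted p = 0.00493). Pseudogenes Gm7910 (1.83) and RP23-391B20.2 (2.19, from 112 reads over the 6 columns) were also called, and how reads shared with their parent copies were counted is not given. Gm7910 was not called in series 13 with 11 alone (0.96, adjusted p = 0.142). The microRNA gene AL808027.1 had 13 reads over the 6 columns and none in either 0 h column, so it is given no fold, and its call was lost in either pair of series alone (adjusted p = 0.0916 and 0.0940) and without the 9 h sample (adjusted p = 0.0601).

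**Figure D1:**
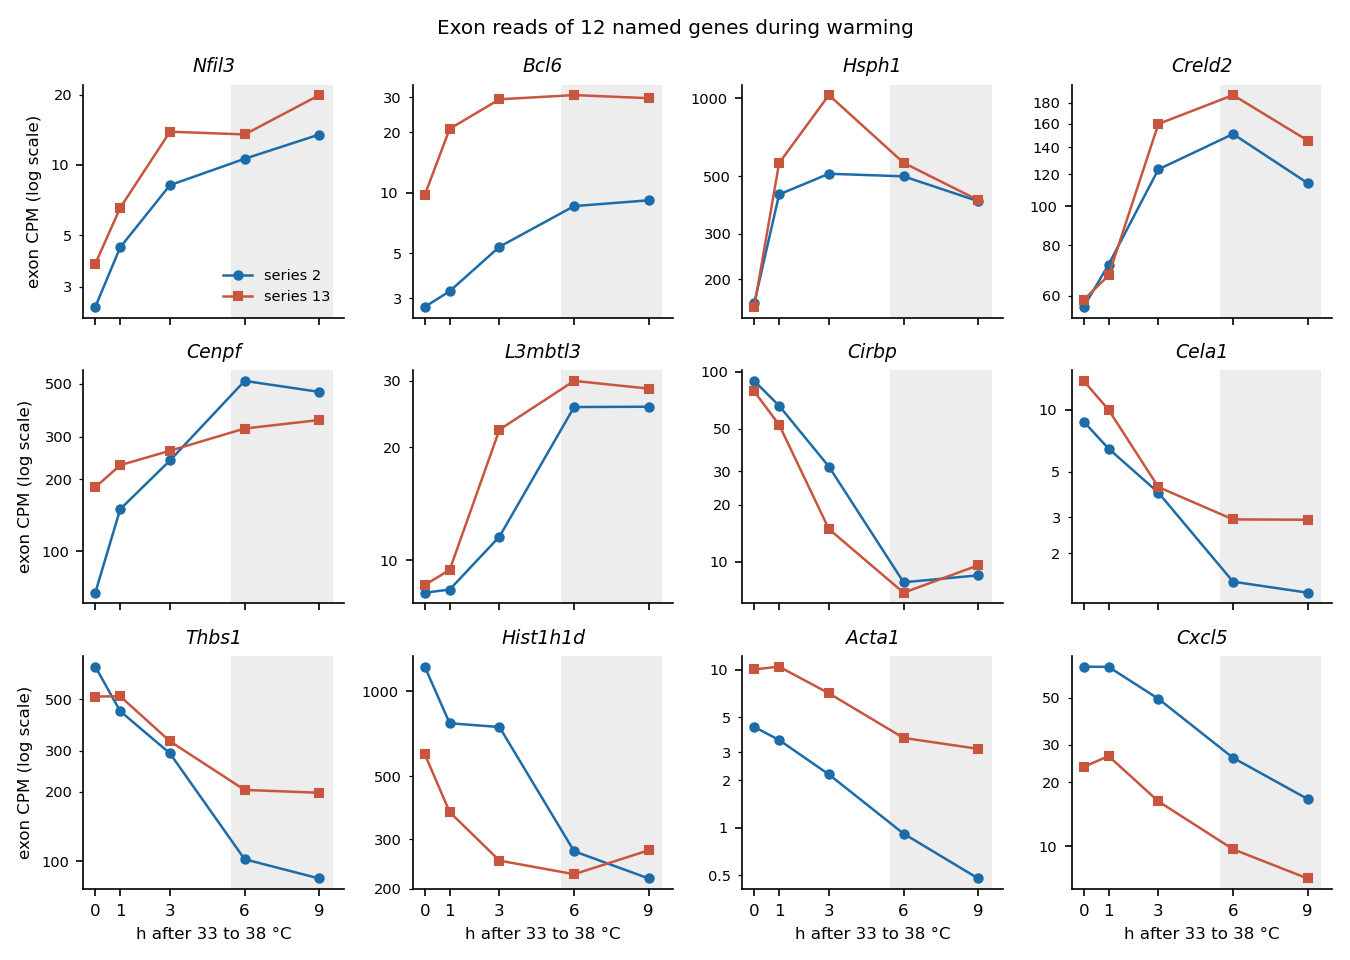
Exon reads of 12 genes over the warming course, in CPM of each column on a log scale against hours after the move from 33 to 38 °C, with circles for series 2, squares for series 13 and the late window shaded. Cirbp lay between 6.88 and 9.59 CPM in the 4 late columns against 78.6 and 89.3 CPM at 0 h, and Bcl6 shows an offset between series with parallel rises.

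Cirbp, the cold-inducible gene of the title (chr10:80165985-80172786, plus strand), fell furthest. Its exon level was 7.80 and 6.88 CPM at 6 h and 8.49 and 9.59 CPM at 9 h, against 89.3 and 78.6 CPM at 0 h. No late column came near a 0 h column, and the difference was -3.36 ± 0.20 (adjusted p = 0.000646), a level 10.3 times lower late. Cela1, a serine protease of the elastase family, had 1.45 and 2.92 CPM at 6 h and 1.28 and 2.91 CPM at 9 h, against 8.75 and 13.8 CPM at 0 h, again without overlap (-2.41 ± 0.16, adjusted p = 0.000325). The secreted adhesion protein gene Thbs1 (chr2:118111876-118127133, plus strand) had 102 and 203 CPM at 6 h and 84.5 and 198 CPM at 9 h, against 689.5 and 513 CPM at 0 h and the smallest adjusted p of the 20 genes (-2.05 ± 0.10, adjusted p = 9.46e-05). The late columns of Thbs1 lay well below both 0 h columns, with series 2 below series 13. Linker histone gene Hist1h1d had 272 and 225 CPM at 6 h and 218 and 274 CPM at 9 h, against 1220.0 and 599 CPM at 0 h (-1.92 ± 0.15, adjusted p = 0.00116). Acsbg1, an acyl-CoA synthetase, had 4.63 and 3.31 CPM at 6 h and 4.91 and 3.59 CPM at 9 h, against 22.5 and 7.73 CPM at 0 h (-1.89 ± 0.13, adjusted p = 0.000325), and Nxpe4, which overlaps Nxpe2, had 1.45 and 5.56 CPM at 6 h and 3.05 and 7.17 CPM at 9 h, against 11 and 19.5 CPM at 0 h (-1.84 ± 0.21, adjusted p = 0.00153).

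Muscle-type actins and 2 more genes completed the 10 largest falls, and these depended more on the series. Acta1, the skeletal muscle alpha-actin, had 0.920 and 3.71 CPM at 6 h and 0.479 and 3.16 CPM at 9 h, against 4.35 and 10.1 CPM at 0 h (-1.81 ± 0.26, adjusted p = 0.00300). Actg2, the smooth muscle gamma-actin, had 49.4 and 4.49 CPM at 6 h and 28.7 and 2.38 CPM at 9 h, against 134 and 11.5 CPM at 0 h (-1.77 ± 0.35, adjusted p = 0.0228), an order of magnitude more in series 2 than in series 13 at each time. The late values were below the 0 h value within each series, and it was not called in series 2 with 5 alone (-1.78, adjusted p = 0.0654). The muscle regulators Myod1 and Myog were at 0 in these columns. Ctgf, a secreted matricellular protein under YAP control, had 50.2 and 68.0 CPM at 6 h and 37.2 and 55.5 CPM at 9 h, against 318 and 69.3 CPM at 0 h. All late columns were below both 0 h columns, by little at 6 h in series 13, and the difference of -1.89 ± 0.29 (adjusted p = 0.0111) became -0.17 in series 13 with 11 alone (adjusted p = 0.622). H2-M1, a class I-like histocompatibility gene, had 1.19 and 0.0357 CPM at 6 h and 0.479 and 0 CPM at 9 h, against 4.32 and 0.192 CPM at 0 h, nearly all of it in series 2 (-2.42 ± 0.50, adjusted p = 0.0163), and lost its call in series 13 with 11 alone (-3.20, adjusted p = 0.0865).

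Cytosolic chaperones of the heat shock response were still raised at 6 and 9 h. Of 33 tested members of 35 listed, 22 were higher and 0 lower, where 15.0% of all tested genes were higher, and the median difference was 0.62 against 0.005 over all tested genes. The shares over all tested genes, 15.0% higher and 16.0% lower, are the comparison for every late exon list count below. Hsph1, a nucleotide exchange factor for Hsp70 (chr5:149614287-149636376, minus strand), led with 499.5 and 563 CPM at 6 h and 400.5 and 404 CPM at 9 h, against 162 and 157 CPM at 0 h (1.60 ± 0.16, adjusted p = 0.00164). Chordc1, a cochaperone of Hsp90 (chr9:18292125-18317442, plus strand), had 168 and 116 CPM at 6 h and 156 and 100 CPM at 9 h, against 65.4 and 41.3 CPM at 0 h (1.37 ± 0.09, adjusted p = 0.000325). The inducible Hsp90 gene Hsp90aa1 had 2586 and 1669 CPM at 6 h and 2520.0 and 1371 CPM at 9 h, against 1103 and 507 CPM at 0 h (1.36 ± 0.21, adjusted p = 0.0108). Late columns exceeded 0 h columns in each of these 3 genes. Among Hsp90's other partners, Ahsa2 (1.29), Stip1 (1.16), Fkbp4 (1.1), Ahsa1 (0.97), St13 (0.72) and Ptges3 (0.41) rose, as did the constitutive Hsp90ab1 (0.70). The Hsp40 genes Dnaja1 (0.94) and Dnajb1 (0.81), the inducible Hsp70 gene Hspa1b (0.85), the mitochondrial chaperonins Hspd1 (0.60) and Hspe1 (0.73) and the factor Hsf1 itself (0.65) rose too. Subunits of the cytosolic chaperonin did not pass, with Tcp1 at 0.00, Cct2 at -0.07, Cct3 at 0.07 and Cct4 at 0.08, nor did the constitutive Hspa8 at 0.66. Ptges3 was not called in series 2 with 5 alone (0.27) nor Hspa1b in series 13 with 11 alone (0.59). Within series 2 with 5 the counts were 21 higher and 0 lower, and within series 13 with 11 the same.

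Heat shock elements lie at the start of several of these genes. RefSeq windows on GRCm38.p6, 250 bases before to 50 bases after each gene's start, were searched on both strands for the heat shock element, GAA, TTC and GAA with 2 bases of any kind between each. It was found in 5 of the 24 listed heat shock genes that have a window (20.8%). Over the 7725 tested genes that have one the share was 0.6%, and over all 27025 RefSeq genes with one 0.7%. Among tested genes called late it was 0.8% for those higher and 0.5% for those lower. Members were listed as known genes of the response, so the list's share is no test of the late change. The same holds for the other elements below. The matches in the most changed members are shown because these 2 genes lead the list, with the element in capitals.
Hsph1 (chr5:149636280-149636308, minus strand): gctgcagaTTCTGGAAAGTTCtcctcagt
Chordc1 (chr9:18292255-18292283, plus strand): tgcaaccgGAACGTTCGGGAAaattcctg
Chordc1 (chr9:18292260-18292288, plus strand): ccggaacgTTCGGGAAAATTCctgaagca
The Hsph1 match lies just after the gene's start and reads as the reverse complement of the searched letters. The Chordc1 windows overlap, and a further match there overlaps both. Hspd1 and Hspe1 are divergent neighbours that share 1 region on chromosome 1, shown because both rose, read on the Hspe1 strand.
Hspe1 (chr1:55088051-55088079, plus strand): acggtccgTTCTAGAACCTTCcggaaggc
Hspe1 (chr1:55088056-55088084, plus strand): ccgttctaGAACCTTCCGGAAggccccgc
The fifth listed gene with a match, Dnajb6, stood at -0.02 and was not called.

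The endoplasmic reticulum's own chaperones and folding enzymes were raised as well. Of 21 tested members 10 were higher and 0 lower, with a median difference of 0.36. Creld2, a disulfide isomerase-like protein (chr15:88819646-88826683, plus strand), had 151 and 188 CPM at 6 h and 114 and 145 CPM at 9 h, against 56.4 and 58.7 CPM at 0 h (1.38 ± 0.24, adjusted p = 0.0117). Sdf2l1, a component of the chaperone complex of this compartment, had 89.2 and 166 CPM at 6 h and 73.6 and 136 CPM at 9 h, against 40.6 and 61.3 CPM at 0 h (1.19 ± 0.18, adjusted p = 0.00466). In both genes the 4 late columns stood above the 0 h columns, and the 6 h values above the 9 h values. The isomerases Pdia4 (1.02), Pdia6 (0.55) and Pdia3 (0.36), the Hsp90 of the compartment Hsp90b1 (0.75), the lectin chaperones Calr (0.63) and Canx (0.23), and Hyou1 (0.61) and Dnajb11 (0.44) rose. The central Hsp70 of the compartment, Hspa5, stood at 0.50 and did not pass (adjusted p = 0.133), and the transcription factor Xbp1 stood at -0.04. Hyou1 was not called in series 2 with 5 alone (0.35), Canx not in series 13 with 11 alone (0.14), and Canx and Dnajb11 not without either late sample. Genes of the ATF4 branch had 3 higher and 5 lower of 19, where 15.0% of all tested genes were higher and 16.0% lower. Among those called were the phosphatase subunit Ppp1r15a at -0.84, the cystine transporter Slc7a11 at -0.62, Cth of cysteine synthesis at -0.61 and the mTOR inhibitor Ddit4 at 0.57. Slc7a11 lost its call in series 2 with 5 alone (-0.27, adjusted p = 0.438), Cth and Ddit4 theirs in series 13 with 11 alone (-0.44 and 0.27), and Slc7a11 and Cth theirs without the 9 h sample.

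The ER stress element, searched on both strands as CCAAT and CCACG with 9 bases of any kind between them, was found in 8 of the 18 listed genes with a window (44.4%) and in 0.2% of the tested genes with a window. Of these 8, Creld2, Hsp90b1, Calr, Pdia6 and Canx were called higher, and Hspa5, Dnajc3 and Syvn1 were not called. All genes called higher late held the element in 0.5%, and those called lower in 0.0%. The 250 bases before the start are printed for Creld2, the largest rise of the list, and for Hsp90b1, which holds 2 matches, with the elements in capitals.
Creld2 (chr15:88819396-88819645, plus strand): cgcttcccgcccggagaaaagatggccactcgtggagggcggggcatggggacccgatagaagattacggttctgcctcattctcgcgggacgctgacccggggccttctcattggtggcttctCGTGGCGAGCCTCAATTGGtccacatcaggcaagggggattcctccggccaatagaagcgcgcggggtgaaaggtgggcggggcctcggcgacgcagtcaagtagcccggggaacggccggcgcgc
Hsp90b1 (chr10:86705445-86705694, minus strand): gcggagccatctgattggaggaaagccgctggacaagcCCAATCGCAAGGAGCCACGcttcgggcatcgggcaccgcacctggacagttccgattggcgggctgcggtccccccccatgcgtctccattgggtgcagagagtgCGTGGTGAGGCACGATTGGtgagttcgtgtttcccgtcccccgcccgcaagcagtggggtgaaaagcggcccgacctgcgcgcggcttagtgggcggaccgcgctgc

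**Figure D2:**
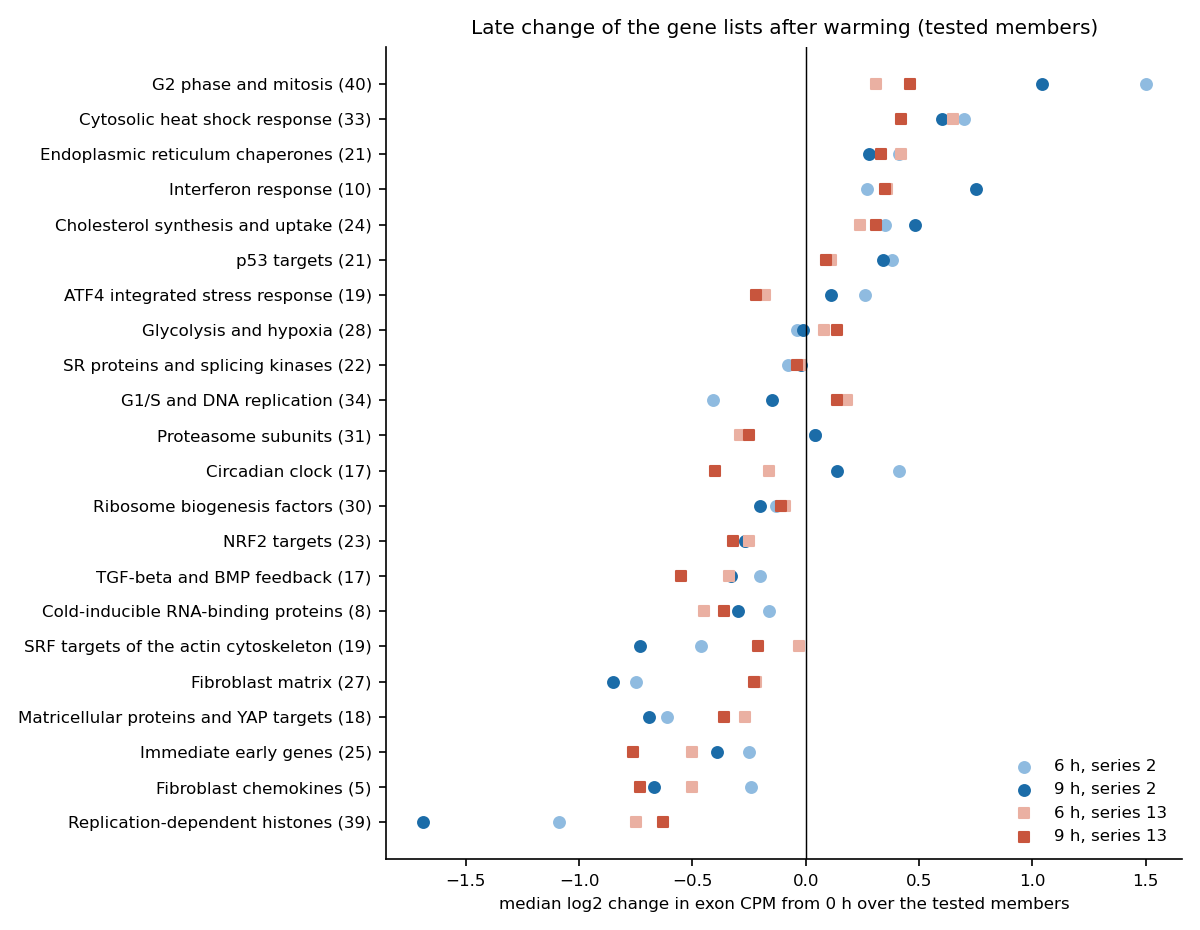
Median log2 difference in exon CPM from 0 h over the tested members of each of the 22 gene lists (number tested in brackets), with a point for each late column and the column series given by shape and colour. Heat shock and endoplasmic reticulum lists lie to the right of 0 in all 4 columns, histones to the left in all 4, and the mitosis list at 1.5 and 1.04 in series 2 and 0.31 and 0.46 in series 13.

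Genes of G2 phase and mitosis rose, and genes of S phase fell in part. Of 40 mitosis genes 35 were higher and 0 lower (median 0.81), and 26 and 0 with the series as a block (median 0.74). Cenpf, a kinetochore protein (chr1:189640606-189688086, minus strand), had 514 and 325 CPM at 6 h and 462 and 353 CPM at 9 h, against 67.3 and 185 CPM at 0 h (1.63 ± 0.10, adjusted p = 0.000325). Late columns were higher in both series, and the low 0 h value of series 2 made that series' difference the larger one. The kinase Aurka (1.43), the exchange factor Arhgef39 (1.51), the kinesin Kif20a (1.45), the spindle checkpoint gene Bub1b (1.15), the anaphase activator Cdc20 (1.24), the kinase Plk1 (1.22) and cyclins Ccnb1 (1.1) and Ccna2 (0.48) rose. The median over the list was 1.5 at 6 h and 1.04 at 9 h in series 2 and 0.31 and 0.46 in series 13, with 32 higher in series 2 with 5 alone and 24 in series 13 with 11 alone, where Ccna2 (0.21) was not called. The cell cycle homology region, TTTGAA on either strand, was found in 24 of 34 listed genes with a window (70.6%) and in 14.1% of the tested genes with one. Of these 24, all but Kif14 (0.56) and Espl1 (0.34) were called higher. All genes called higher late held it in 18.3%, and those called lower in 12.8%. The region is shown for 2 of the most changed genes, in capitals.
Cenpa (chr5:30666891-30666918, plus strand): gcgggtgatttTTTGAActgctggcgac
Cenpf (chr1:189688068-189688095, minus strand): gcggcgggcagTTTGAAtcgctcgtgct
Genes of the G1/S transition and DNA replication had 1 higher and 12 lower of 34, with a median of -0.08. The G1 cyclin Ccne1 had 16.3 and 18.5 CPM at 6 h and 21.9 and 19.9 CPM at 9 h, against 66.2 and 30.5 CPM at 0 h (-1.37 ± 0.11, adjusted p = 0.000563), late columns below both 0 h columns. The polymerase Pole (-0.93), the chromatin assembly factor Chaf1b (-0.82) and the helicase subunit Mcm6 (-0.67) fell, and the origin protein Orc1 rose (0.63). In series 2 with 5 alone the list had 0 higher and 12 lower (median -0.25), and in series 13 with 11 alone 5 higher and 3 lower (median 0.16). It had 7 lower without the 6 h sample and 6 with the series as a block. Chaf1b (-1.14) and Orc1 (0.70) were not called in series 2 with 5 alone, Mcm6 not in series 13 with 11 alone (-0.23), and Orc1 not without the 9 h sample (0.53).

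Replication-dependent histones, whose messages are made in S phase and end in a stem-loop in place of a poly(A) tail, fell as a list. Of 39 tested members 32 were lower and 0 higher, against 16.0% lower over all tested genes, with a median of -1.13. Besides Hist1h1d, the linker histones Hist1h1c (-1.77) and Hist1h1e (-1.72) and the core histone Hist4h4 (-1.66) led. Hist1h1c had 323 and 202 CPM at 6 h and 185 and 221 CPM at 9 h, against 1005 and 523 CPM at 0 h. All late columns were below the 0 h columns, and 0 h of series 2 was the highest. Medians over the list were -1.09 at 6 h and -1.69 at 9 h in series 2 and -0.75 and -0.63 in series 13. Only 1 member was called in series 2 with 5 alone, where the median was -1.37, and 35 in series 13 with 11 alone, where it was -0.69. Hist1h1c, Hist1h1e and Hist4h4 were not called in series 2 with 5 alone (adjusted p = 0.107, 0.0955 and 0.0775). Histone genes with nearly the same sequence can share reads. Targets of p53 had 7 higher and 0 lower of 21 (median 0.19), where 15.0% of all tested genes were higher. The cyclin Ccng1 (0.82), Gtse1 (0.80), the receptor Eda2r (0.52), the apoptosis effector Bax (0.50), the kinase inhibitor Cdkn1a (0.47) and the p53 ligase Mdm2 (0.43) were called. In series 13 with 11 alone 2 of these 21 were higher and 1 lower, and Eda2r stood at 0.02, Gtse1 at 0.26 Bax at 0.29 and Mdm2 at 0.20 without a call. Mdm2 was not called without the 6 h sample either (0.33).

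Genes of the extracellular matrix and of the actin cytoskeleton fell. Of 27 fibroblast matrix genes 21 were lower and 0 higher (median -0.37). Fbn1, which codes for fibrillin of elastic microfibrils, had 419 and 777 CPM at 6 h and 390.1 and 759 CPM at 9 h, against 1186 and 1418 CPM at 0 h (-1.14 ± 0.07, adjusted p = 0.000212). The fall was seen in each series, and all late columns were below both 0 h columns. Tenascin Tnc (-1.30), the protease inhibitor Timp1 (-0.90), the crosslinking enzymes Loxl1 (-0.70) and Lox (-0.44), and the collagens Col5a1 (-0.64), Col4a1 (-0.61), Col6a1 (-0.57) and Col1a1 (-0.34) fell, while fibronectin Fn1 (-0.12) and Sparc (-0.13) did not pass. In series 2 with 5 alone 25 of the 27 were lower, and in series 13 with 11 alone 10 were lower and 1 higher, with Lox (-0.24) and Col1a1 (-0.12) not called. Matricellular proteins and YAP targets had 8 lower and 1 higher of 18 (median -0.41), where 16.0% of all tested genes were lower and 15.0% higher. Besides Thbs1 and Ctgf, Ankrd1 (-1.35), Cyr61 (-1.27), Fstl1 (-0.96) and Crim1 (-0.81) fell and Ptpn14 rose (0.39; 0.34 without a call when the 6 h sample was left out). Feedback genes of the TGF-beta and BMP pathways had 7 lower and 1 higher of 17, against the same 16.0% and 15.0% of all tested genes. The latent TGF-beta binding protein Ltbp2 (-0.85), the inhibitory Smad7 (-0.63), the corepressor Skil (-0.57) and the decoy receptor Bambi (-0.56) were lower and the ligase Smurf2 higher (0.47). Bambi was not called without the 6 h or without the 9 h sample (-0.54 and -0.60) or in series 13 with 11 alone (-0.50).

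Cytoskeletal targets of serum response factor had 11 lower and 0 higher of 19 (median -0.34). Tagln, an actin-binding protein of contractile cells, had 377 and 89.4 CPM at 6 h and 247 and 66.3 CPM at 9 h, against 801 and 199.7 CPM at 0 h (-1.35 ± 0.27, adjusted p = 0.0229), lower late within each series with overlap across series, and was not called in series 2 with 5 alone (adjusted p = 0.0634). The myosin light chain Myl9 (-1.32), the tropomyosins Tpm2 (-0.69) and Tpm1 (-0.68), Fhl2 (-0.67) and the adhesion protein Zyx (-0.63) fell, and Acta2, the smooth muscle alpha-actin, stood at -1.18 without passing. Tpm1 was not called in series 13 with 11 alone (-0.39, adjusted p = 0.0546). The list medians were -0.46 at 6 h and -0.73 at 9 h in series 2 and -0.03 and -0.21 in series 13, with 13 lower in series 2 with 5 alone, 6 in series 13 with 11 alone and 7 with the series as a block. CArG boxes, the binding sequence of serum response factor, were found in 6 of 17 listed genes with a window (35.3%). Tested genes with a window held them in 1.6%, those called lower late in 2.3% and those called higher in 1.2%. Of the 6, Myl9 and Fhl2 were called lower, and Cnn2 (-0.35), Vcl (-0.16), Actg1 (0.10) and Srf (0.16) were not called. In the immediate early list 3 of 19 genes with a window held a box (15.8%). Of these 3, Dusp5 and Egr2 (-0.84) were called lower and Zfp36 (0.11) was not called. The boxes of Myl9 and of the phosphatase Dusp5 are shown in capitals.
Myl9 (chr2:156775294-156775321, plus strand): aagcagaggCCTAATAAGGccgggctgg
Dusp5 (chr19:53529054-53529081, plus strand): gggaaatacCCATATTTGGccttatatg
Dusp5 (chr19:53529064-53529091, plus strand): catatttggCCTTATATGGgcactcacg

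Immediate early genes, the fast response to growth factors, had 13 lower and 2 higher of 25 (median -0.48), where 16.0% of all tested genes were lower and 15.0% higher. Dusp5, a phosphatase that acts on ERK, had 27.7 and 7.09 CPM at 6 h and 25.9 and 7.17 CPM at 9 h, against 72.0 and 14.8 CPM at 0 h (-1.32 ± 0.13, adjusted p = 0.000908), lower late within each series, with overlap across series. The nuclear receptor Nr4a1 (-1.29), the zinc finger factors Egr1 (-1.18), Egr2 (-0.84), Klf4 (-0.71) and Klf2 (-0.70), Maff (-0.85), Ier3 (-0.80), Ier2 (-0.71), Dusp6 (-0.74), Jun (-0.45) and Myc (-0.27) fell, and Fosl2 (0.28) and Klf10 (0.30) rose. Nr4a1 and Egr1 were not called in series 2 with 5 alone (adjusted p = 0.0898 and 0.123), nor were Klf4 (-0.28) and Myc (-0.17). In series 13 with 11 alone Egr2 (-0.56), Fosl2 (0.20) and Klf10 (0.04) were not called. Myc and Fosl2 lost their call without either late sample and Klf10 without the 9 h sample. Chemokine Cxcl5, which attracts neutrophils, had 26.1 and 9.70 CPM at 6 h and 16.7 and 7.07 CPM at 9 h, against 69.8 and 23.6 CPM at 0 h (-1.64 ± 0.21, adjusted p = 0.00397), with the 9 h values below the 6 h values in both series and overlap of late and 0 h columns across series. Of the 5 fibroblast chemokine and cytokine genes tested, Cxcl1 (-0.76) and the macrophage growth factor Csf1 (-0.56) also fell, Ccl7 rose (0.62) and Ccl2 stood at 0.12. Cxcl1 was not called in series 2 with 5 alone (-0.54) nor Csf1 without the 9 h sample (-0.45).

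Clock genes were called about as often as all tested genes, 3 higher and 3 lower of 17, where 15.0% were higher and 16.0% lower. Besides Nfil3, the repressors Per2 and Cry1 (0.59) rose, Cry2 (-0.48) and Per1 (-0.47) fell, and 11 of the 17 tested did not pass. Per2 had 32.3 and 34.8 CPM at 6 h and 31.4 and 24.0 CPM at 9 h, against 5.56 and 19.6 CPM at 0 h (1.26 ± 0.32, adjusted p = 0.0361). All late columns of Per2 were above both 0 h columns, by more in series 2, and in series 13 with 11 alone it was not called (0.58, adjusted p = 0.163). Cry2 was not called in series 2 with 5 alone (-0.01) or without either late sample, and Cry1 not without the 9 h sample. Per1 had the opposite sign in series 2 with 5 alone (0.38, adjusted p = 0.0828) and was not called without the 9 h sample (-0.30). NRF2 targets, the enzymes of the antioxidant response, had 9 lower and 1 higher of 23 (median -0.24), and 5 lower without the 9 h sample. Nqo1, a quinone reductase, had 35.0 and 301 CPM at 6 h and 33.5 and 234 CPM at 9 h, against 64.5 and 556 CPM at 0 h (-1.03 ± 0.25, adjusted p = 0.0351; 0.0581 without the 9 h sample). Its series differ by close to an order of magnitude, and within each the late values were below 0 h. The glutathione enzymes Gsta4 (-0.74), Gclc (-0.49) and Gsr (-0.48) and the thioredoxin reductase Txnrd1 (-0.56) fell, and Hmox1, which breaks down heme, rose (0.62; 0.26 without a call in series 13 with 11 alone).

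Smaller rises were found in genes of cholesterol synthesis and of interferon signalling. Of 24 cholesterol genes 9 were higher and 0 lower (median 0.29), among them Idi1 (0.74), Dhcr7 (0.74), Fdft1 (0.66) and Fdps (0.62), with 6 higher from the 9 h sample alone and 4 from the 6 h sample alone. Of the interferon list 10 of 23 genes were tested and 5 were higher, among them the transcription factors Stat2 (0.95), Irf9 (0.94) and Irf1 (0.88) and the effector Ifit3 (0.56). Ifit3 was called in neither pair of series alone (0.54 and 0.57) and not without either late sample. The GAS element TTCNNNGAA was found in 2 of 9 listed genes with a window (22.2%) and in 7.8% of tested genes with one. Of these 2, Irf1 was called higher and Ifi35 (0.13) was not called. All genes called higher late held the element in 6.4%, and those called lower in 9.0%.

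The remaining lists were of metabolism, protein turnover, splicing and cold-inducible proteins. Of all tested genes 15.0% were higher and 16.0% lower. The counts of the glycolysis, ribosome biogenesis, proteasome and splicing lists lay near or below these shares. The glycolysis and hypoxia list had 3 higher and 2 lower of 28 (1 and 0 with the series as a block), with the collagen hydroxylases P4ha1 (0.68) and P4ha2 (0.70) and the phosphofructokinase Pfkl (0.63) up and the kinase Pdk1 (-0.62) down. P4ha1, P4ha2 and Pfkl were not called in series 2 with 5 alone, where Pfkl stood at -0.12 and P4ha1 at 0.17, and Pdk1 was not called in series 13 with 11 alone (-0.04). Ribosome biogenesis factors had 2 higher and 5 lower of 30, with 0 called from the 6 h sample alone, and proteasome subunits 0 higher and 1 lower of 31 (Psmd8, -0.48), with 14 lower in series 13 with 11 alone and 0 in series 2 with 5 alone. In the splicing list, SR proteins and their kinases, 3 of 22 were higher and 2 lower (2 and 5 with the series as a block), with Srsf7 at 0.49, Tra2a at 0.42, Srrm2 at 0.31, Srsf2 at -0.31 and Srsf5 at -0.81. The kinases Clk1 (0.09) and Clk4 (0.13), which phosphorylate SR proteins, did not pass. Tra2a was not called in series 13 with 11 alone (0.31, adjusted p = 0.135), Srrm2 and Srsf2 not in series 2 with 5 alone (0.14 and -0.17) or without the 6 h sample, and Srsf2 not without the 9 h sample. Of 8 tested members of the cold-inducible list, Cirbp, Rbm3 (-0.74), Rbmx (-0.66) and Srsf5 fell and 0 rose, where 16.0% of all tested genes were lower, while Ybx1 (0.18) did not pass. Rbm3, which overlaps the antisense gene Rbm3os, had 222 and 113 CPM at 6 h and 199 and 78.9 CPM at 9 h, against 295 and 221 CPM at 0 h. It was not called in series 2 with 5 alone (-0.49, adjusted p = 0.176) or without the 9 h sample (-0.62, adjusted p = 0.0752).

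Intron reads asked whether unspliced RNA moved with mature RNA. Of 9378 genes tested 995 (10.6%) had higher and 1081 (11.5%) lower intron reads late, with the TMM library sizes of the intron reads. On the TMM library sizes of the exon reads the split was 1992 higher and 394 lower. The median over all tested genes then stood 0.143 above 0 h and not at -0.007. With plain column totals of the intron reads the split was 1269 and 811. In series 13 with 11 alone 1125 genes were called. Bcl6 rose in introns as in exons, with 35.8 and 115 CPM at 6 h and 36.2 and 114 CPM at 9 h, against 9.04 and 30.6 CPM at 0 h (1.94 ± 0.11, adjusted p = 1.51e-06), and L3mbtl3 likewise (1.56, adjusted p = 1.1e-05). The proliferin Prl2c2 (1.61) and the pseudogene Gm14127 (2.02, under 1 CPM in each column) were next, the second without a call in series 13 with 11 alone. The ubiquitin ligase gene Rnf26 had 70.3 and 84.7 CPM at 6 h and 46.7 and 77.3 CPM at 9 h, against 20.9 and 27.3 CPM at 0 h (1.52 ± 0.14, adjusted p = 5.83e-05), with all late columns above both 0 h columns, while its exon reads stood at 0.16 and were not called. Rnf26 overlaps 6 annotated genes, 1 of which, Gm49380, also overlaps Usp2, and Usp2 introns stood at 0.67 (adjusted p = 0.00212).

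Intron reads fell with exon reads for several genes of the matrix group. Thbs1 introns had 15.7 and 26.3 CPM at 6 h and 13.7 and 26.4 CPM at 9 h, against 100.1 and 76.8 CPM at 0 h (-2.08 ± 0.11, adjusted p = 1.51e-06), beside an exon difference of -2.05. The late values of Thbs1 introns were below both 0 h columns. Ctgf introns stood at -1.89 (adjusted p = 0.00461), and at -0.47 without a call in series 13 with 11 alone. With limma neither Ctgf introns nor those of 3830417A13Rik, named next, were called (adjusted p = 0.0857 and 0.0624). The noncoding locus AL607127.1, which overlaps Skap1, stood at -2.65 and 3830417A13Rik at -2.20, the second from under 2 CPM and without a call in series 13 with 11 alone or without the 6 h sample. Among the lists, introns were higher in 17 and lower in 0 of 32 heat shock genes, higher in 18 and lower in 0 of 40 mitosis genes, and lower in 14 and higher in 1 of 27 matrix genes.

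**Figure D3:**
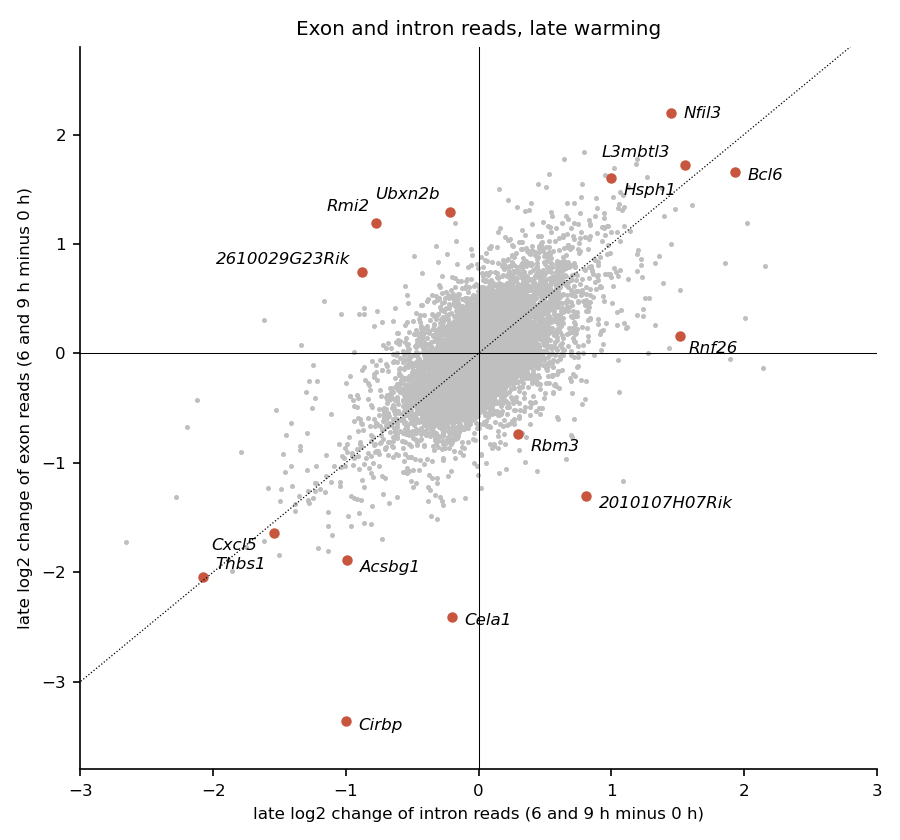
Late log2 difference of exon reads against that of intron reads (6 and 9 h minus 0 h), with a grey point for each gene tested in both, named genes in red and equal differences on the dotted line. Cirbp (-3.36 in exons, -1.0 in introns) and Cela1 (-2.41 and -0.20) lie far below the line, Rmi2 (1.19 and -0.77) above it, and Thbs1 (-2.05 and -2.08) on it.

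The ratio of exon to intron reads of a gene was tested as an interaction, with both kinds of reads on the exon scale. Its very small edgeR p-values rest mainly on the spread shared across genes. With limma the adjusted p was 0.000402 for Cirbp (-2.53) and 0.00361 for Rmi2 (1.79). Of 9378 genes 350 (3.73%) had a higher and 2435 (26.0%) a lower ratio late, together 29.7%, and the median over all tested genes was -0.16, a general shift. With introns on their own scale, an alternative chosen after seeing the data, the median was -0.007 and the split 868 higher and 1103 lower. Intron reads per exon read over whole columns were 0.464 and 0.644 at 6 h and 0.510 and 0.606 at 9 h, against 0.479 and 0.526 at 0 h, so the shift was in series 13 at both times and in series 2 at 9 h. In series 2 with 5 alone 1718 genes were called, in series 13 with 11 alone 1083, and from the 6 h sample alone 1787.

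Genes far outside this shift moved in both series. Rmi2, a subunit of the dissolvasome that resolves recombination intermediates (chr16:10835059-10892966, plus strand), had 0.229 and 0.171 exon reads per intron read at 6 h and 0.249 and 0.202 at 9 h, against 0.0577 and 0.0623 at 0 h (1.79 ± 0.13, adjusted p = 2.34e-25). Its exon reads rose (1.19) and its intron reads fell (-0.77), each called. The X-linked 2610029G23Rik had higher exon reads (0.74) and lower intron reads (-0.88), each called, and 1.60 and 1.28 exon reads per intron read at 6 h and 1.67 and 1.40 at 9 h, against 0.505 and 0.583 at 0 h (1.48 ± 0.11, adjusted p = 2.34e-25). Ubxn2b, an adaptor of the p97 ATPase, had 1.27 and 0.938 exon reads per intron read at 6 h and 1.31 and 1.02 at 9 h, against 0.518 and 0.368 at 0 h (1.33 ± 0.16, adjusted p = 1.47e-11), with introns at -0.21 and not called. The splicing factor gene U2af1l4, which overlaps Psenen, stood at 1.23 (adjusted p = 0.000453) and at 0.86 without a call in series 2 with 5 alone. Taf7 had between 2 and 19 intron reads in each of the 6 columns, and its ratio call (1.47) was lost without the 6 h sample and in series 13 with 11 alone.

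Cirbp had the largest fall in ratio, with 1.68 and 1.41 exon reads per intron read at 6 h and 1.53 and 1.71 at 9 h, against 8.91 and 9.32 at 0 h (-2.53 ± 0.16, adjusted p = 1.56e-30). Its intron reads also fell, with 9.84 and 8.17 CPM at 6 h and 10.8 and 9.68 CPM at 9 h, against 21.5 and 16.8 CPM at 0 h (-1.0, adjusted p = 0.000849). Cela1 had 0.359 and 0.511 exon reads per intron read at 6 h and 0.269 and 0.440 at 9 h, against 1.74 and 2.38 at 0 h (-2.38 ± 0.21, adjusted p = 3.35e-19), while its intron reads stood at -0.20 and were not called. In 2010107H07Rik, which overlaps the chromatin remodelling gene Pbrm1, the ratio had 0.222 and 0.164 exon reads per intron read at 6 h and 0.253 and 0.183 at 9 h, against 0.837 and 1.14 at 0 h (-2.28 ± 0.18, adjusted p = 7.58e-23), with exon reads lower (-1.30) and intron reads higher (0.81). In all 3 genes the late columns lay apart from the 0 h columns. The histone gene Hist1h2bp (-2.42) and the homeobox gene Hoxd9 (-2.46) rest on 12 to 36 and 0 to 5 intron reads a column, and the Hoxd9 call was lost in either pair of series alone and without either late sample. Rbm3 had a lower ratio (-1.19, adjusted p = 1.33e-15) with introns at 0.29, and Srsf7 a higher one (0.72, adjusted p = 9.83e-09) with exons up and introns down (-0.38, adjusted p = 0.00245). Among the lists, ratios were lower in 17 and higher in 0 of 27 matrix genes and higher in 13 and lower in 1 of 40 mitosis genes. With introns on their own scale these counts were 10 and 0, and 27 and 1, and in series 13 with 11 alone no mitosis gene had a higher ratio.

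**Figure D4:**
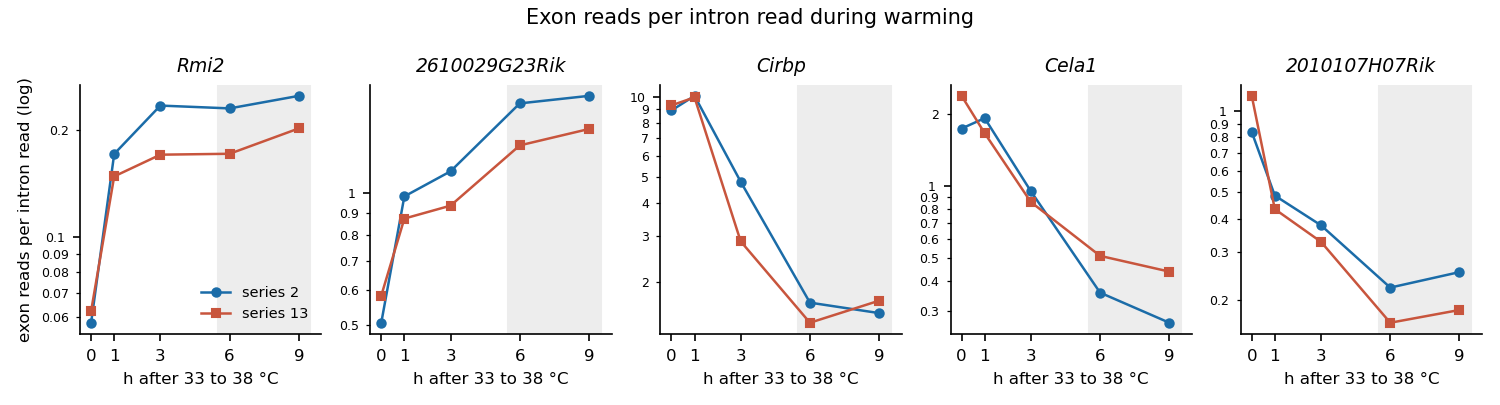
Exon reads per intron read of 5 genes over the warming course, on log scales that differ between panels, with circles for series 2, squares for series 13 and the late window shaded. The ratio of Cirbp was 1.41 to 1.71 in the late columns against 8.91 and 9.32 at 0 h, and that of Rmi2 0.171 to 0.249 against 0.0577 and 0.0623.

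Set against 3 h, the late samples asked which part of the late state came after the first hours. At 6 and 9 h 27 genes (0.265%) were higher and 64 (0.629%) lower than at 3 h, together 0.894%. With 1 late sample left out, the other is assumed to vary like the remaining groups. The number of calls varied with the samples used, since edgeR called 0 genes without the 9 h sample (with 1186 genes at an unadjusted p below 0.05) and 181 without the 6 h sample, and limma called 0 (with 1801 at an unadjusted p below 0.05) in place of edgeR's 91. The differences of the 10 genes named next were of similar size from the 6 h sample alone, among them -1.87 for Ankrd1, -1.07 for Thbs1, -1.64 for Cirbp, -0.95 for Nppb and 1.23 for Frat2. Ankrd1, a cardiac ankyrin repeat protein and YAP target, fell most (-1.98 ± 0.16, adjusted p = 0.0107), to 11.2 and 1.14 CPM at 6 h and 9.5 and 0.995 CPM at 9 h, against 41.7 and 3.64 CPM at 3 h and 26.2 and 3.01 CPM at 0 h. Thbs1 (-1.14), Cirbp (-1.49), the membrane semaphorin Sema7a (-1.25) and the natriuretic peptide Nppb (-1.17) were also lower than at 3 h. Sema7a was called in neither pair of series alone (-1.36 and -0.36), and Cirbp not in series 13 with 11 alone (-0.87). Higher than at 3 h were Frat2, an inhibitor of GSK3 (1.24), the XIAP-associated Xaf1 (1.1), the homeobox repressor Tgif2 (1.04), the intermediate filament protein Synm (0.91) and the deubiquitinase Usp2 (0.90). Of these, Xaf1 and Synm were not called in series 2 with 5 alone, Frat2, Tgif2 and Usp2 not in series 13 with 11 alone, and Usp2 not without the 6 h sample. Frat2 had 4.30 and 2.50 CPM at 6 h and 3.65 and 3.48 CPM at 9 h, against 1.45 and 1.59 CPM at 3 h and 1.67 and 4.66 CPM at 0 h. Both late values of Frat2 were above 3 h in each series, and the difference from 0 h in the summed samples was 0.10 ± 0.15, not called.

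By list, 4 heat shock genes were lower late than at 3 h and 0 higher, namely the inducible Hsp70 gene Hspa1b (-1.04), Dnaja1 (-0.72), the cochaperone Bag3 (-0.58) and Dnajb1 (-0.47), all of which were still above 0 h. Hsph1, with 499.5 and 563 CPM at 6 h and 400.5 and 404 CPM at 9 h, against 511 and 1027 CPM at 3 h and 162 and 157 CPM at 0 h, stood at -0.72 (adjusted p = 0.0736). The stress factors Ddit3 (-0.84), Atf3 (-0.82), Trib3 (-0.72) and Chac1 (-0.69) and the transporter Slc7a11 (-1.28) of the ATF4 list were lower than at 3 h, and of these 5 only Slc7a11 was called against 0 h. Cenpf (0.73), Cdc20 (0.84) and Anln (0.41) of the mitosis list were higher than at 3 h. Between 6 and 9 h, where there is 1 sample per time and no test, 3 of 10174 genes (0.0295%) differed by 2-fold or more in the same direction in both series, 1 (0.00983%) higher at 9 h and 2 (0.0197%) lower. The interferon-inducible Apol9a had 2.02 and 4.44 CPM at 9 h against 0.920 and 1.96 CPM at 6 h. The clock output gene Dbp had 14.8 and 19.7 CPM at 9 h against 37.4 and 46.7 CPM at 6 h, and the nuclear receptor repressor Nr1d1 of the clock 22.6 and 14.8 CPM against 48.7 and 36.2 CPM.

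The cooling course asked which late differences change sign with the direction of the move and which are found after both moves, each course having its own 0 h sample. In cooling 1427 genes (14.0%) were higher and 1566 (15.4%) lower late, together 29.4%. Of the 3145 genes called after warming and the 2993 called after cooling, 1680 were called in both, 53.4% of the first and 56.1% of the second. Opposite directions were found for 1627 of them, 869 higher after warming and lower after cooling and 758 the reverse, and the same direction for 53, of which 15 were higher and 38 lower after both. The late difference of warming minus that of cooling was tested directly and passed for 4574 genes, 2283 (22.4%) with a positive and 2291 (22.5%) with a negative value, together 45.0%.

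Cirbp had the largest negative value, -7.02 ± 0.33 (adjusted p = 0.000128), from -3.36 after warming and 3.66 after cooling. Cela1 (-4.66), Nxpe4 (-4.01), Thbs1 (-3.40) and the defensin gene Defb41 (-5.23, 84 reads over the 6 warming columns, 8 of them in series 13, and not called in series 13 with 11 alone) followed. The antisense locus 1110002L01Rik, which overlaps Kif3c and Asxl2, stood at 3.5, from 0.95 after warming and -2.55 after cooling. The noncoding AC092404.1 (3.45), the microRNA gene Mir1953 (3.59, 54 reads over the 6 warming columns) and the pseudogene RP23-391B20.2 (3.43) had positive values, and AC092404.1 was not called in series 2 with 5 alone. Heat shock genes had 24 positive and 1 negative of 33 (Hsph1 3.04, Chordc1 2.84), endoplasmic reticulum chaperones 14 and 0 of 21 (Creld2 2.65), mitosis genes 38 and 0 of 40 (Cenpf 2.79), and histones 0 and 30 of 39 (Hist1h1d -3.07). NRF2 targets had 1 positive and 15 negative of 23, with 12 higher and 1 lower after cooling, and proteasome subunits 0 and 15 of 31, with 9 higher and 0 lower after cooling.

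Some of the largest late falls had negative values after both moves. Acta1 stood at -1.81 after warming and -1.73 after cooling, Actg2 at -1.77 and -1.73, and the difference between courses was -0.08 ± 0.40 and -0.04 ± 0.51, neither called. Tagln (-1.35 and -1.02, the second not called) and Myl9 (-1.32 and -1.21) had the same sign in both courses, as did Timp1 (-0.90 and -0.59). Fibroblast matrix genes had 8 lower and 1 higher of 27 after cooling, where 15.4% of all tested genes were lower and 14.0% higher. The difference between courses was called negative for 13 of the 27 and positive for 1. Sema7a stood at -1.78 after warming and -1.45 after cooling, but its fall after warming was in series 2. It had 15.5 and 2.07 CPM at 6 h and 10.1 and 2.95 CPM at 9 h, against 49.4 and 2.52 CPM at 0 h, and in series 13 with 11 alone the warming difference was -0.02 (adjusted p = 0.970). For Nfil3 (-0.19), Bcl6 (-0.32) and Cenpa (-0.27) the late difference after cooling was not called, while that between the courses was 2.38, 1.98 and 1.97 (adjusted p = 0.00437, 0.000282 and 0.00293). Cholesterol genes had 9 higher and 0 lower of 24 after warming, where 15.0% of all tested genes were higher. After cooling they had 3 higher and 0 lower, close to the 14.0% of all tested genes that were higher there. Cry1 was higher after both (0.59 and 0.98).

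**Figure D5:**
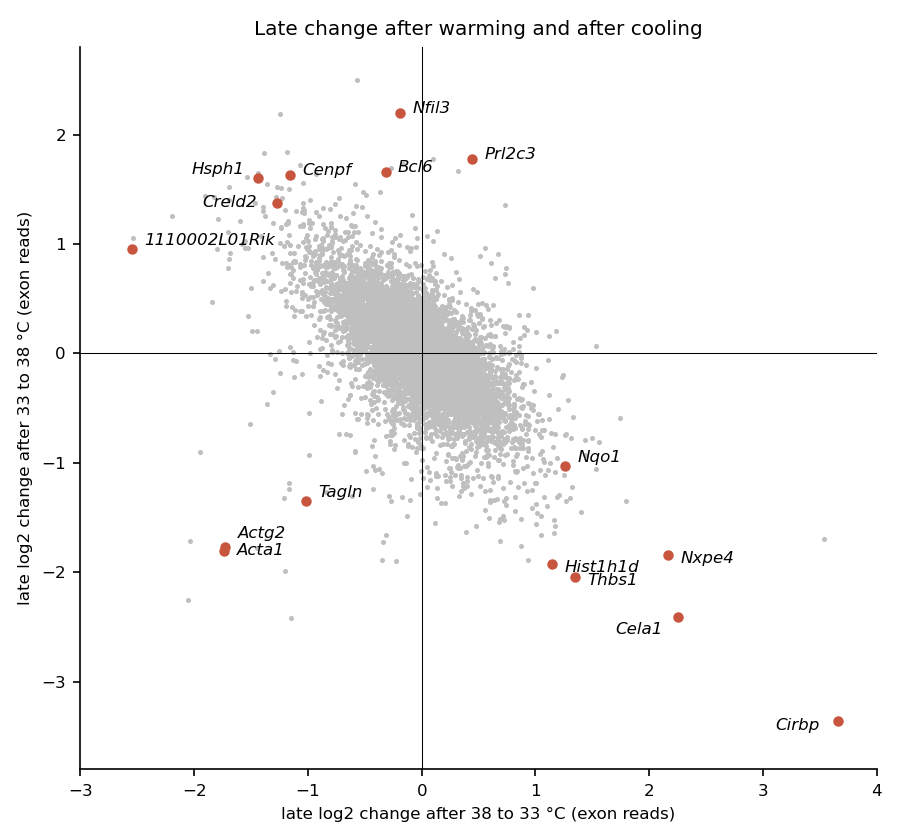
Late log2 difference of exon reads after warming (vertical axis) against that after cooling (horizontal axis), 6 and 9 h minus 0 h of each course, with a grey point for each of the 10174 tested genes and named genes in red. Cirbp lies at -3.36 and 3.66 and Hsph1 at 1.60 and -1.44, in opposite corners, while Acta1 and Actg2 lie low on both axes.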

How the data were processed

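The authors deposited estimated counts of reads per gene, separately for exons and introns, in whole and fractional numbers that were rounded here to whole counts. The tools STAR and bedtools and the build mm10 are named, with no role given, per the submitters' processing notes, and how reads shared between genes were counted is not given. The deposited tables carry RPKM in their names, but their exon columns sum to between 22403625 and 48004854, and they were used as counts. The 2 columns of each sample were added, and numbered columns were compared within a series. Tested genes had an average exon RPKM of 1 or more, using GENCODE M21 lengths on GRCm38, and introns also needed a mean intron RPKM of at least 0.05.

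Counts of the 10 samples were fitted in 8 groups (0, 1, 3 h and late in each course) with edgeR 4.0.16 (R 4.3.3), TMM scaling, the quasi-likelihood test and Benjamini-Hochberg adjustment at 0.05, with a gene-wise offset for the mix of series and 2 residual degrees of freedom. Exon against intron reads were compared in 1 fit with an interaction term and samples as blocks. Alternatives used DESeq2 1.42.0, limma 3.58.1, other scalings and filters, each series, each sample left out and columns as libraries, and the fits were tested on simulated data. Per-column log2 differences used CPM plus 0.1. Series numbers are shared across the times of a course, and the difference between the series correlated at 0.819 between 6 and 0 h, 0.82 between 9 and 0 h and 0.933 between 9 and 6 h, across genes. The gene lists and comparisons were chosen with earlier results of these data known. Genes named are the 10 largest called exon changes in each direction with the same sign at 6 and 9 h in both series, 5 in each direction for the other tests by the same rule, and up to 4 of each of the 22 lists. Further list members were named after their values were seen. Promoter windows are from RefSeq on GRCm38.p6. Columns numbered 10, found for cooling at 1 and 3 h only, were not used, and some genes are not reported here.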

Additional observations from a re-analysis of the deposited data

Results flagged for a closer look

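The late difference after warming minus that after cooling, tested directly with edgeR's quasi-likelihood test and Benjamini-Hochberg adjustment, passed for 4574 genes. The largest differences in each direction with the same sign at 6 and 9 h in both series are given on the log2 scale, apart from AL808027.1, which had no reads in the warming 0 h columns and is given no value. Cirbp stood at -7.02, and Defb41 (-5.23, 84 reads over the 6 warming columns), Cela1 (-4.66), Nxpe4 (-4.01) and Thbs1 (-3.40) were also negative. Positive values were found for Mir1953 (3.59, 54 reads), 1110002L01Rik (3.5), AC092404.1 (3.45) and RP23-391B20.2 (3.43, 112 reads). The 2 courses also differ in the temperature of the 16 h before the move.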

How the results depend on the processing

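Counts of called genes held within 1.5 times of the reported value except as follows. For exon reads of late warming against 0 h (3145 called), columns as libraries with no replicate block gave 1 call by edgeR, with 1234 genes at an unadjusted p below 0.05, against 2774 with the block. For intron reads (2076), series 13 with 11 alone gave 1125, DESeq2 1334, limma 930, a slope over all 5 times 183, and columns as libraries with no replicate block 0 by edgeR, with 721 at an unadjusted p below 0.05, against 1448 with the block. For the exon to intron ratio (2785), series 2 with 5 alone gave 1718, series 13 with 11 alone 1083, DESeq2 1638 and limma 1426. For late against 3 h (91), series 2 with 5 alone gave 156, a fit with no term for the mix of series 159, no filter beyond 10 reads 311, a mean exon RPKM of at least 5 52, DESeq2 342 and limma 0, with 1801 at an unadjusted p below 0.05. Differences between 9 and 6 h numbered 24 at 1.5-fold in place of 3 at 2-fold.

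With 1 late sample of either course left out, the exon count ran between 1805 and 2868, the intron count between 1804 and 2039, the ratio count between 1787 and 2787, the count against 3 h between 0 and 181, and the count of warming against cooling between 3736 and 4090. Among 2201 values of named genes under all alternatives, 1903 kept their direction and side of the threshold, 297 kept the direction and lost the call, and Pfkl turned to -0.12 in series 2 with 5 alone. Per1, a list member outside these values, turned to 0.38 there. The causes were not tested. The block ended no other late exon call whose difference is given above than those listed there, and Acta2, Hspa8, Ddit3 and Nr1d1 were called with it. Each time has 1 sample, and the genes given with few reads are limited by counting error as well.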
